A study of Rubus idaeus with 6 samples.

Results

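The SQUAMOSA PROMOTER BINDING PROTEIN-LIKE (SPL) gene models described here are Ro03_G33114, listed by the study as the orthologue of Arabidopsis SPL3, and Ro04_G02526, listed as an SBP-domain transcription factor with AT1G69170, known in Arabidopsis as SPL6, as its closest orthologue. They are 2 of the 19951 gene models in the deposited table, and each has 1 row of values. They were chosen by their identifiers, with earlier results of these data known. In the v3.0 assembly of black raspberry (R. occidentalis) that the study used, its list of gene models puts Ro03_G33114 at 40852903 bp of LG3, in the interval mapped for RiAF3, and Ro04_G02526 at 3725813 bp of LG4, in the interval listed for RiAF4. The sources used here do not say whether these positions are gene starts, or on which strand. By its mapping the study narrowed RiAF4 to a part of the listed interval, and the position of Ro04_G02526 lies within that part. For RiAF3 the study could not narrow the interval, because the marker order of its map did not match the assembly there.

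Transcripts were counted in axillary buds of red raspberry (R. idaeus), taken 5 to 10 nodes below the apex of field-grown plants on November 5, in late spring. The groups were 3 libraries of ‘Heritage’, an annual-fruiting (AF) cultivar, and 3 of ‘Wakefield’, a biennial-fruiting (BF) cultivar, and no treatment was applied. RNA with an integrity number above 8 was sequenced, and 7345603 to 14977596 reads per library were recovered from the deposited values. Each habit was represented by 1 cultivar at 1 date, so fruiting habit cannot be told apart from other differences between the cultivars. The libraries are called biological replicates, but whether they came from separate plants is not given, so that p-values measure only the spread between these libraries.

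In Arabidopsis, SPL proteins bind DNA through the SBP domain and promote the change from juvenile to adult growth and from vegetative growth to flowering. The microRNA miR156 targets the transcripts of many SPL genes, including those of SPL3 and SPL6, and its level declines as the shoot ages. SPL3 encodes a small protein with little more than the SBP domain and promotes floral meristem identity, and SPL6 is known for a part in resistance to pathogens.

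SPL3 (Ro03_G33114) had normalized counts of 648, 1073 and 1521 in ‘Wakefield’ libraries 59, 60 and 61, and of 587, 454 and 554 in ‘Heritage’ libraries 62, 63 and 64. A normalized count is the number of reads on the gene model divided by a size factor for the library, with no correction for gene length. The 3 ‘Heritage’ values all lay below the lowest ‘Wakefield’ value, and ‘Wakefield’ library 59 lay closer to ‘Heritage’ library 62 than to the other ‘Wakefield’ libraries. The mean was 532 ± 69.1 for ‘Heritage’ and 1081 ± 436 for ‘Wakefield’ (SD, n = 3 each). Separation of this kind, with the groups not overlapping and ‘Heritage’ the lower, was found for 26.2% of the 17898 gene models tested, which were those reaching 10 in 3 or more libraries, and separation in either direction for 53.2%.

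The difference in SPL3 did not pass the main test. In limma on log2(normalized count + 1), the log2 fold change of ‘Heritage’ minus ‘Wakefield’ was -0.95 (standard error 0.32, 95% interval -1.72 to -0.17), with adjusted p = 0.0659 over all gene models tested. By the same test 17.5% of gene models passed as lower in ‘Heritage’ at an adjusted p under 0.05, and 10.4% had a log2 fold change below -0.9. The study set an adjusted p under 0.01 with a log2 fold change past 1, and an alpha threshold that was not applied here. At that adjusted p and fold change neither SPL gene model passed in limma, where 9.62% of gene models did. On the reads recovered from the normalized values, edgeR's quasi-likelihood test with TMM scaling gave a log2 fold change of -1.03 with adjusted p = 0.0265, where 19.6% of gene models passed as lower. DESeq2 on those reads gave -1.03 with adjusted p = 0.00138, where 19.9% passed as lower. SPL3 thus passed that adjusted p and fold change in this DESeq2 fit, as 7.40% of gene models did on the lower side. The study counted fewer gene models as lower than the 1323 of this fit, so a pass here is not its own call. The exact permutation test over the libraries (two-sided) gave p = 0.1, the smallest value that 3 libraries against 3 allow.

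**Figure D1:**
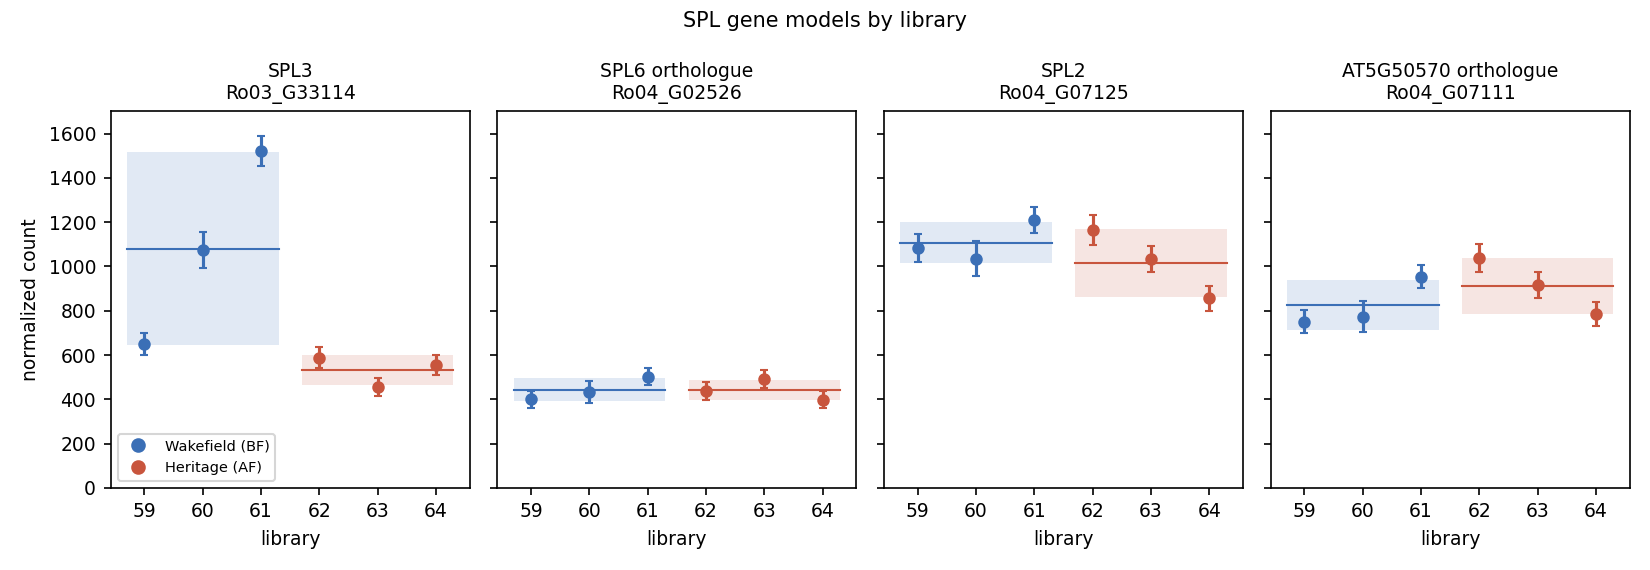
Normalized counts (vertical axis) of 4 SPL gene models in each library (horizontal axis), with ‘Wakefield’ in blue and ‘Heritage’ in red. Bars on the points are exact Poisson 95% intervals that cover counting error only, lines are group means and shaded bands are ± 1 SD (n = 3). SPL3 runs from 648 to 1521 in ‘Wakefield’ and from 454 to 587 in ‘Heritage’, while the groups overlap for the other gene models.

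The spread of SPL3 lay mostly within ‘Wakefield’. Its highest ‘Wakefield’ library was 2.35 times its lowest, against 1.29 times in ‘Heritage’, and the SDs on the log2 scale were 0.62 and 0.19. The ‘Wakefield’ SD was larger than that of 96.4% of the 6909 gene models with a mean normalized count of 300 to 1500, and the ‘Heritage’ SD was larger than that of 79.4% of them. Counting error was small beside this spread. The values rested on 690, 690 and 2048 reads in ‘Wakefield’ libraries 59, 60 and 61 and on 561, 500 and 582 reads in ‘Heritage’ libraries 62, 63 and 64. Libraries 59 and 60 thus held the same number of SPL3 reads, and their normalized counts differ through the size factors of the libraries. The Poisson intervals of their normalized counts, 601 to 698 and 995 to 1156, did not overlap.

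Without ‘Wakefield’ library 59 the log2 fold change of SPL3 was -1.27 with adjusted p = 0.0118 in limma, a pass, and without library 61 it was -0.66 with adjusted p = 0.118. Leaving out any other single library gave log2 fold changes between these and no pass (adjusted p = 0.127 to 0.178). A mean-variance trend in limma, which lets the assumed spread depend on the level, gave adjusted p = 0.0357 at the same fold change. The direction was the same under all 15 alternatives, and 6 of them passed at an adjusted p under 0.05.

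**Figure D2:**
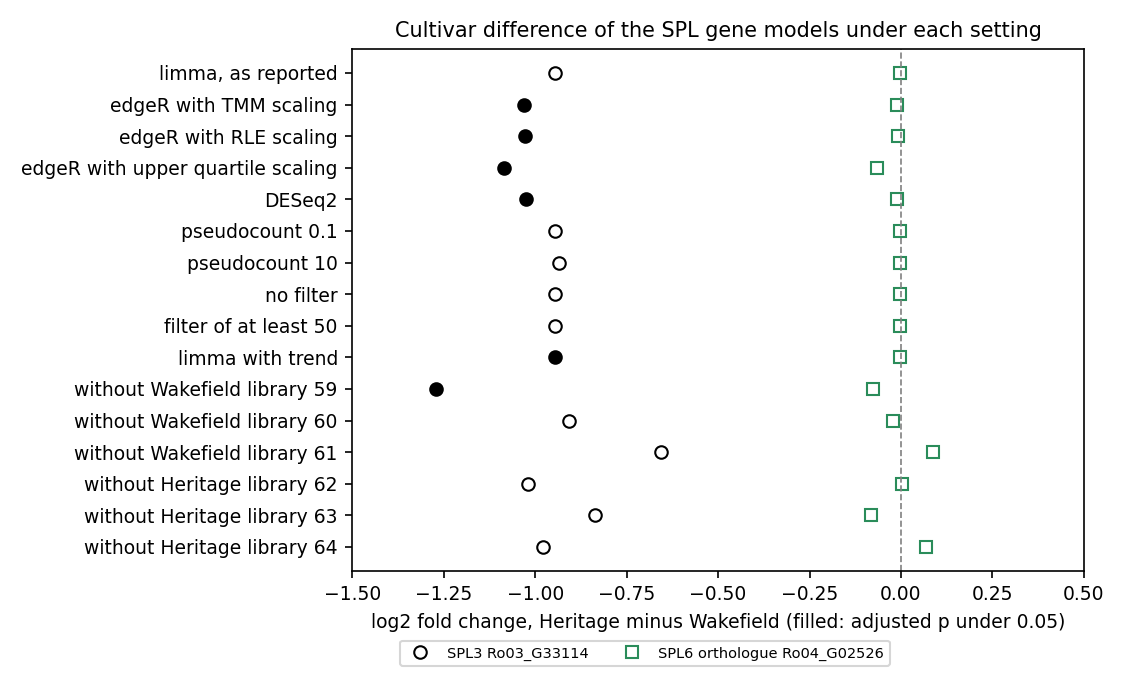
Log2 fold change of ‘Heritage’ minus ‘Wakefield’ (horizontal axis) for SPL3 (circles) and Ro04_G02526 (squares) under each setting (vertical axis), with filled symbols for an adjusted p under 0.05. SPL3 lies between -1.27 and -0.66 throughout and is filled under 6 alternatives, while Ro04_G02526 lies between -0.081 and 0.086 and is never filled.

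‘Wakefield’ library 59 stood apart in SEPALLATA3 (SEP3), a MADS-box gene of floral organ identity. The SEP3 gene models Ro04_G02528 and Ro04_G07112 had 356 and 221 in library 59, 68.4 and 29.5 in library 60, and 36.4 and 7.43 in library 61. AGAMOUS (AG, Ro03_G05331), a further gene of floral organ identity, had 84.5, 129 and 36.4 in these libraries and was highest in library 60. The sum over all 3 was 661 in library 59, 227 in library 60 and 80.2 in library 61, and 130 to 150 in ‘Heritage’. SPL3 was lowest in library 59 and highest in library 61, the reverse of the order of both SEP3 gene models within ‘Wakefield’ but not of that of AG. In limma 0 of 3 passed between the cultivars, 0 had an unadjusted p under 0.05, and edgeR called 0 and DESeq2 2. Of all gene models tested, limma called 33.5%, edgeR 37.4% and DESeq2 38.2%, and 46.1% had an unadjusted limma p under 0.05. The 3 floral organ gene models were detected in every library, and their part in the SPL3 values was not tested. In bulk buds, fewer cells of a type and less RNA per cell cannot be told apart.

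The SBP-domain gene of LG4, Ro04_G02526, had normalized counts of 399, 431 and 500.5 in ‘Wakefield’ libraries 59, 60 and 61, and of 436, 491 and 399 in ‘Heritage’ libraries 62, 63 and 64. The groups overlapped along their whole range, and the highest of the 6 values was 1.25 times the lowest. The mean was 442 ± 46.1 for ‘Heritage’ and 443 ± 51.8 for ‘Wakefield’ (SD, n = 3 each), resting on 277 to 674 reads per library. The log2 fold change was -0.0037 (standard error 0.14) in limma, with adjusted p = 0.986 there, 0.956 in edgeR and 0.972 in DESeq2. Its 95% interval in limma ran from -0.33 to 0.33, that is from 20.7% lower to 25.5% higher in ‘Heritage’. A change within these bounds cannot be told from no change at this replication. The interval is not adjusted for the number of gene models tested, so its bounds are not a limit of detection.

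The pair was compared within each library, where scaling between libraries cancels. The ratio of the normalized count of SPL3 to that of Ro04_G02526 was 1.62, 2.49 and 3.03 in ‘Wakefield’ libraries 59, 60 and 61, and 1.34, 0.926 and 1.39 in ‘Heritage’ libraries 62, 63 and 64. All 3 ‘Heritage’ ratios were below all 3 ‘Wakefield’ ratios. This largely repeats the SPL3 values, since the limma log2 fold change was -0.95 for SPL3 and -0.0037 for Ro04_G02526. Since the counts are not corrected for gene length, the ratio shows how the balance of the genes differed between libraries and not which gene had more transcripts. On the log2 scale the mean was 0.26 ± 0.32 for ‘Heritage’ and 1.20 ± 0.46 for ‘Wakefield’ (SD, n = 3 each). The difference of -0.94 had p = 0.1 in the exact permutation test (two-sided), again the smallest that the design allows, so the test cannot pass a threshold of 0.05.

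Of the other SPL gene models in the listed part of the mapped intervals, both on LG4, neither passed the test. Their positions, 6682345 bp for Ro04_G07125 and 6772829 bp for Ro04_G07111, lie outside the part to which the study narrowed RiAF4. Ro04_G07125, the orthologue of SPL2, which in Arabidopsis acts in the shoot and in the shape of lateral organs, had normalized counts of 1082, 1033 and 1210 in ‘Wakefield’ and 1163, 1032 and 856 in ‘Heritage’. Its log2 fold change was -0.13 (95% interval -0.49 to 0.23, limma adjusted p = 0.517). Ro04_G07111, whose closest orthologue AT5G50570 is known as SPL13A and acts in the change from juvenile to adult leaves, had 751, 771 and 953 in ‘Wakefield’ and 1037, 915 and 785 in ‘Heritage’. Its log2 fold change was 0.14 (95% interval -0.24 to 0.52, limma adjusted p = 0.506). The groups overlapped for both gene models. All 4 SPL gene models had their highest ‘Wakefield’ value in library 61, and their summed normalized count was 2880, 3308 and 4184 in ‘Wakefield’ libraries 59, 60 and 61 and 2594 to 3224 in ‘Heritage’. That sum includes SPL3, at 648, 1073 and 1521 in these ‘Wakefield’ libraries, and is not separate from it. The sum over Ro04_G07125 and Ro04_G07111 alone was 1804 to 2163 in ‘Wakefield’ and 1641 to 2200 in ‘Heritage’. The sources used here do not say how reads shared by related SBP-domain genes were assigned.

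Of 7 genes of the small RNA machinery and of phase change in Arabidopsis, 1 was higher in ‘Heritage’, 2 were lower and 4 did not pass (adjusted p under 0.05, limma). The share that passed was 42.9%, against 33.5% of the whole table, where 16.0% rose and 17.5% fell in ‘Heritage’. The median log2 fold change of the list was 0.21, against 0.01 over all gene models tested. The counts were the same in edgeR, which called 37.4% of the whole table (17.8% higher), and in DESeq2, which called 38.2% (18.3% higher). Of the list, 1 or 0 passed in limma when ‘Wakefield’ library 61 or any one ‘Heritage’ library was left out. Calls over the whole table fell in those fits as well, from 5994 to between 2796 and 4657.

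TREHALOSE-6-PHOSPHATE SYNTHASE 1 (TPS1, Ro03_G05334), whose product trehalose-6-phosphate acts upstream of miR156 and SPL genes in Arabidopsis, was lower in ‘Heritage’. Its normalized counts were 180, 143 and 69.8 in ‘Wakefield’ libraries 59, 60 and 61 and 49.2, 30.9 and 40.0 in ‘Heritage’, and the log2 fold change was -1.61 ± 0.38 (standard error, limma adjusted p = 0.0238). The groups did not overlap, as was found with ‘Heritage’ the lower for 26.2% of all gene models tested. Within ‘Wakefield’ TPS1 was highest in library 59 and lowest in library 61, the reverse of SPL3, an order that was not tested. Its adjusted p was 0.0523 to 0.0804 without library 60, 62, 63 or 64.

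HEN1 (Ro03_G16143), the methyltransferase that protects the ends of plant miRNAs, was also lower in ‘Heritage’. Normalized counts were 327, 253.5 and 313 in ‘Wakefield’ and 181, 198 and 204 in ‘Heritage’ (log2 fold change -0.61, limma adjusted p = 0.0188). Its groups did not overlap, as for 26.2% of all gene models tested with ‘Heritage’ the lower. In limma its adjusted p was 0.0506 to 0.0675 without library 61, 62 or 63. VAL1 (listed as HSI2, Ro03_G05930), a B3-domain repressor that acts on MIR156 genes in Arabidopsis, was higher in ‘Heritage’. It had 917, 1079 and 861 in ‘Wakefield’ and 1565, 1340 and 1249 in ‘Heritage’ (log2 fold change 0.54, limma adjusted p = 0.0316). It passed only in the fit without library 60 among those that left out 1 library, with adjusted p = 0.0516 to 0.0921 in the rest. The 4 that did not pass were CPL1 (Ro03_G06485), a phosphatase of the miRNA-processing complex, the argonautes AGO7 (Ro04_G00017) and AGO2 (Ro03_G10872), and RING1A (Ro03_G06543), a Polycomb protein. Their log2 fold changes were -0.21, 0.37, 0.21 and 0.25 in that order, with adjusted p from 0.0961 to 0.333 in limma. miR156 itself was not measured in these libraries.

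**Figure D3:**
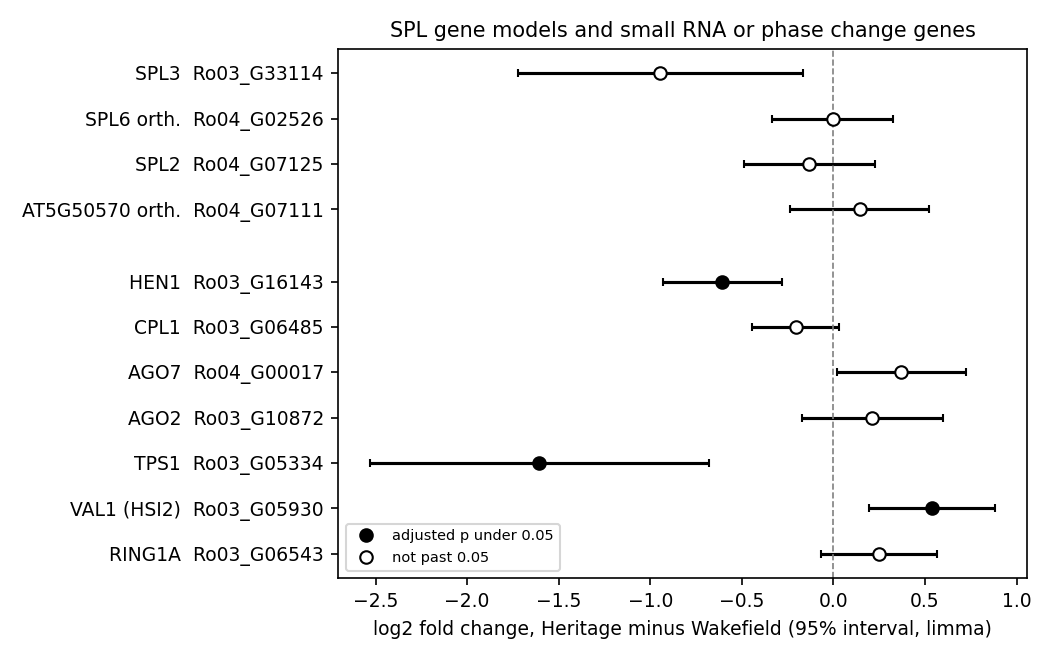
Log2 fold change of ‘Heritage’ minus ‘Wakefield’ (horizontal axis) with its 95% interval from limma for the 4 SPL gene models and 7 small RNA or phase change genes. Filled points have an adjusted p under 0.05. HEN1 and TPS1 are filled on the lower side, VAL1 is filled on the higher side, and no SPL gene model is filled.

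Other regulators that share the floral transition with SPL genes were taken from 4 further lists. Of 8 floral regulators tested of 9 listed, 3 were higher in ‘Heritage’, 0 were lower and 5 did not pass in limma. Over all gene models tested, limma called 16.0% higher and 17.5% lower. DESeq2 called 2 more of the list, AG and SEP3 Ro04_G07112, as lower, against 19.9% lower over all gene models. The 3 higher floral regulators were JMJ14 (Ro03_G15781), a histone demethylase, PFT1 (Ro04_G02642), a Mediator subunit, and the AGL24 gene model Ro04_G36356. The study picked all 3 as candidates with these samples in view, so they are not independent evidence of a direction. FCA (Ro04_G19915), which the study also picked, was among the 5 that did not pass (log2 fold change 0.28, limma adjusted p = 0.0972). Its adjusted p was 0.0603 in edgeR and 0.0744 in DESeq2. AGL24, a MADS-box activator of flowering, had normalized counts of 4.70, 10.9 and 22.3 in ‘Wakefield’ libraries 59, 60 and 61 and 57.5, 72.7 and 43.8 in ‘Heritage’ (log2 fold change 2.31, limma adjusted p = 0.0203, 0.0543 to 0.0718 without library 60, 62 or 63). The other AGL24 gene model, Ro04_G36209, had 93.0, 194 and 126 in ‘Wakefield’ and 133 to 139 in ‘Heritage’, did not pass (log2 fold change 0.04, limma adjusted p = 0.927) and was highest in library 60. PFT1 had an adjusted p of 0.0544 to 0.0852 in limma without library 60, 61, 62, 63 or 64. Within ‘Wakefield’ the AGL24 gene model Ro04_G36356 and SPL3 were both lowest in library 59 and highest in library 61, whereas their fold changes between the cultivars had opposite signs. That shared order over 3 libraries was not tested, and how many gene models have it was not counted.

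Of 4 gene models of light and photoperiod 1 was higher, of 4 of gibberellin 1 was lower, and of 4 TCP factors 1 was higher, at an adjusted p under 0.05 in limma. The first was CDF1 (Ro04_G00056), a DOF repressor of CONSTANS, whose call was lost without library 63 (adjusted p = 0.0529 in limma). The second was GA2OX8 (Ro03_G10546), an enzyme that inactivates gibberellins, at 14.1 to 26.4 in ‘Wakefield’ and 3.14 to 9.08 in ‘Heritage’, whose call was lost without library 62 or 64. It reached the minimum for testing only through the ‘Wakefield’ libraries, where it is high, and so had to differ, and it was too low to be tested without any one of them. TCP14 (Ro04_G00084), a class I TCP factor of growth, had 161, 157 and 171 in ‘Wakefield’ and 348, 359 and 289 in ‘Heritage’ (log2 fold change 1.02, limma adjusted p = 0.00304). GAI (Ro04_G00303), a DELLA repressor of gibberellin response whose family binds SPL proteins in Arabidopsis, had 1221, 1555 and 1715 in ‘Wakefield’ and 1782, 1756 and 1741 in ‘Heritage’. Its groups did not overlap, as for 27.0% of all gene models tested with ‘Heritage’ the higher. The log2 fold change of GAI, 0.25, did not pass (limma adjusted p = 0.234). Of the 27 gene models tested from these lists and the small RNA list, 6 were higher and 3 were lower, which is 33.3%, against 33.5% of all gene models tested in either direction. Without GA2OX8 the counts were 6 higher and 2 lower of 26 tested, which is 30.8%. The count of 9 was 3 without ‘Heritage’ library 62 or 63, and 5 without ‘Wakefield’ library 60 or ‘Heritage’ library 64. Calls over the whole table fell in those fits too, from 5994 to between 2796 and 4079.

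Green leaf markers had fold changes of the same sign as SPL3. Of 6 photosystem and light-harvesting genes, 4 were lower in ‘Heritage’ and 2 did not pass in limma, against 17.5% lower over the whole table, and all 6 were lower in edgeR, against 19.6%. Their summed normalized count was 14766 to 20336 in ‘Wakefield’ and 9151 to 10350 in ‘Heritage’, and none of the 6 was at 0. Within ‘Wakefield’ the sum was lowest in library 61, the library with the most SPL3. Of the 6, 2 passed without ‘Heritage’ library 62 or 63. In those fits 3274 and 2796 gene models were called over the whole table, against 5994 with all libraries. LHCA2 (Ro04_G07134, log2 fold change -1.52, limma adjusted p = 0.00234) and PSAF (Ro03_G10895, log2 fold change -0.79, limma adjusted p = 0.00701) were among the lower ones. The part of leaf tissue in the SPL3 difference was not tested.

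Shoot meristem markers were present in every library. The summed normalized count of STM (Ro03_G13515), KNAT6 (Ro04_G02787) and ATML1 (Ro03_G10561) was 3258, 3935 and 3965 in ‘Wakefield’ libraries 59, 60 and 61 and 3350 to 3461 in ‘Heritage’, and 0 of 3 passed in limma. ATML1 alone had an unadjusted p under 0.05, and edgeR and DESeq2 both called it lower in ‘Heritage’. The sum over 4 xylem and phloem markers was 10545 to 11812 in ‘Wakefield’ and 8271 to 11290 in ‘Heritage’, and limma, edgeR and DESeq2 each called 0 of 4, while the unadjusted limma p was under 0.05 for 0. These ranges overlapped between the cultivars. The shares called over all gene models tested were 33.5% in limma, 37.4% in edgeR and 38.2% in DESeq2, and 46.1% had an unadjusted limma p under 0.05.

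The position of each SPL gene model was set beside its 5 listed neighbours on either side. The list is held in part, so further gene models may lie between the listed ones. Around SPL3, 9 of 10 neighbours could be tested, of which 1 was lower in ‘Heritage’ and 0 were higher. The lower one was EMB3113 (Ro03_G06535), 45.4 kb from SPL3, with normalized counts of 321, 350 and 300 in ‘Wakefield’ and 191, 166 and 198 in ‘Heritage’ (log2 fold change -0.80, limma adjusted p = 0.00578). At 18.0 kb from SPL3, DRM1 (Ro03_G06544), a gene associated with dormancy, had a log2 fold change of 0.46 in the other direction and did not pass (limma adjusted p = 0.102), but DESeq2 called it higher (adjusted p = 0.0263). DESeq2 also called Ro03_G06536 lower (adjusted p = 0.0416), so that its counts were 1 higher and 2 lower, while edgeR called EMB3113 alone.

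Around Ro04_G02526 all 10 neighbours could be tested, and 1 was higher and 2 were lower in ‘Heritage’. The nearest listed gene model on one side, Ro04_G15211, listed as a DNA-binding protein and 30.1 kb away, had 233, 138 and 130 in ‘Wakefield’ and 33.5, 59.1 and 69.5 in ‘Heritage’ (log2 fold change -1.62, limma adjusted p = 0.0177, 0.0509 without library 63). On the other side a ribosomal protein S15A gene model (Ro04_G02530), 30.3 kb away, had 42.3, 26.4 and 29.0 in ‘Wakefield’ and 98.4, 116 and 108 in ‘Heritage’ (log2 fold change 1.72, limma adjusted p = 0.00272). The listed gene models between Ro04_G02526 and Ro04_G02530, Ro04_G02527 at 10.0 kb and the SEP3 gene model Ro04_G02528 at 17.6 kb, both had a log2 fold change of -0.03 (limma adjusted p = 0.928 and 0.979). The second lower one, on the same side as Ro04_G02530, was Ro04_G02532, 40.2 kb away (log2 fold change -1.11, limma adjusted p = 0.0342), whose adjusted p was 0.0745 to 0.104 without library 60, 61, 62, 63 or 64. edgeR and DESeq2 called Ro04_G15208 higher as well (adjusted p = 0.0356 and 0.00346). The shares called in limma, 1 of 9 and 3 of 10, stand beside 33.5% of all gene models tested.

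Gene models with an Arabidopsis orthologue in the listed intervals were ranked by how closely their log2 values followed each SPL gene model over the 6 libraries, as a description only, since the cultivar difference and the library scaling are shared by all points. Closest to SPL3 were Ro03_G06456 (Pearson r = 0.98), Ro03_G32920 (r = 0.98) and Ro03_G05800 (r = 0.97), out of 1690 compared. Ro03_G06456 had normalized counts of 288, 376 and 549 in ‘Wakefield’ libraries 59, 60 and 61 and 247, 211 and 216 in ‘Heritage’, the same order within ‘Wakefield’ as SPL3. In all, 139 of 17897 gene models had r above 0.95 with SPL3, and 9 had it with Ro04_G02526. Closest to Ro04_G02526 among the listed ones were Ro04_G00110, a pentatricopeptide repeat gene (r = 0.88), FRS10 (Ro03_G10173, r = 0.87), a relative of the phytochrome signalling factor FAR1, and Ro03_G06495 (r = 0.86).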

How the data were processed

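Axillary bud RNA of 3 ‘Heritage’ and 3 ‘Wakefield’ libraries, grouped by the cultivar in the labels, was sequenced as paired-end reads from a stranded kit. Per the study, Trimmomatic and SortMeRNA served to filter reads, STAR to align them to R. occidentalis gene models and DESeq2 to compare the cultivars. Not given in the sources used here: versions, counting program, strandedness of counting. Each deposited signal value is a read count scaled by the authors with 1 size factor for the library. Whole reads came back for 100% of values in each library (tolerance 0.001 of a read), 7345603 to 14977596 per library. The authors' own fold changes, standard errors, test statistics, p-values and adjusted p-values were not used. Both cultivars were aligned to another species' gene models, so a sequence difference can change a count.

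The main test was limma 3.58.1 (R 4.3.3) on log2(value + 1), for gene models with at least 10 in at least 3 libraries, with Benjamini-Hochberg adjustment over 17898. The alternatives were edgeR 4.0.16 and DESeq2 1.42.0 on recovered reads, other pseudocounts and filters, a mean-variance trend, and each library left out. Exact permutation tests used SciPy 1.17.1 in Python 3.11.15. The limma, edgeR (TMM scaling) and DESeq2 fits were tested on simulated data, and the exact tests and the other settings were not. Poisson intervals cover counting error only. Members and lists were chosen with earlier results of these data known. The rule for named genes took the SPL gene models, members of fixed lists matched through the study's list of gene models in the intervals (held in part), except 2 taken from its candidate table (AGL24 Ro04_G36356 and FCA Ro04_G19915), 5 neighbours on either side, and the 3 listed gene models most correlated with each.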

Additional observations from a re-analysis of the deposited data

How the results depend on the processing

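The fold change of SPL3 (Ro03_G33114) kept its direction in 15 of 15 alternatives and passed at an adjusted p under 0.05 in 6. These were edgeR with TMM scaling (log2 fold change -1.03), RLE scaling (-1.03) and upper quartile scaling (-1.08), DESeq2 (-1.03), limma with a trend (-0.95) and the fit without ‘Wakefield’ library 59 (-1.27). Adjusted p ran from 0.00138 to 0.178 over these alternatives. The leave-one-out values ran from -1.27 to -0.66 for SPL3 and from -0.081 to 0.086 for Ro04_G02526, with its sign turned in 3 of 6. At 3 libraries a cultivar, a change of Ro04_G02526 within its interval could not be told from no change, and the bounds are not a limit of detection. The difference in the log2 ratio of the pair was -1.19 to -0.74 with 1 library left out.

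The count of 5994 gene models called was 2796 to 4657 without a ‘Heritage’ library or without ‘Wakefield’ library 60 or 61, 5532 without library 59, and 1722 at an adjusted p under 0.01 with a log2 fold change past 1. With 1 library left out, calls ran from 0 to 2 for the small RNA list, 1 to 3 for floral regulators, 0 to 1 for light and photoperiod, 0 to 1 for gibberellin and 1 to 2 for TCP factors, and DESeq2 called 5 floral regulators. The causes were not tested, beyond the smaller number of libraries. No paired analysis was possible because the libraries of the cultivars share no replicate number.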
